A study of Mus musculus with 16 samples.

Results

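The sciatic nerve of 2-month-old (adult) *Becn1* cKO mice was set against that of 10-day-old (P10) control mice, to ask whether the adult mutant nerve resembles an immature normal nerve or holds a state of its own. The comparison took 8 of the 16 Clariom S mouse arrays of the series, namely the 4 adult cKO and the 4 P10 control arrays, and all 19505 genes that carry a symbol, each read from the transcript cluster with the highest mean over the 16 arrays. The 4 adult control arrays were used to place each difference. The 4 P10 cKO arrays entered the model behind the standard errors and p-values, the choice of transcript cluster and the distances between arrays. No single gene was compared with them, and only the means of the macrophage, pigment, lysosome and NRF2 lists are given for them. The cKO mice were *Becn1* fl/fl and carried Cre recombinase under the promoter of the *Myelin protein zero* gene, which Schwann cells (SCs) switch on before birth. Control mice were *Becn1* fl/fl or *Becn1* fl/+ littermates without Cre, and the labels call them wild-type. Only SCs lose the gene in this model, while axons, fibroblasts, vessels and immune cells of the nerve keep it. Neither labels nor methods say how many mice stand behind an array, so the p-values measure the spread between these arrays. Because the adult cKO and the P10 control nerve differ in genotype and in age, the parts of both in a difference cannot be told apart in this comparison alone.

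Postnatal nerve development gives the background for this question. Immature SCs divide, sort axons and pair with single large axons, then leave the cell cycle and build the myelin sheath under the transcription factor encoded by *Egr2*. At P10 a normal sciatic nerve is still growing and making myelin at a high rate, with fibroblasts laying down collagen and with imprinted growth genes active, whereas the SCs of an adult nerve are quiescent and maintain their myelin. Injured SCs can return to a dividing, non-myelinating state, and macrophages then enter the nerve to clear myelin. Beclin 1 belongs to the lipid kinase complex around VPS34, which makes the lipid signal needed for autophagosomes and for endosomal traffic.

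*Becn1* had log2 values of 8.24, 8.23, 8.18 and 8.10 in adult cKO nerves, against 8.62, 8.57, 8.52 and 8.72 in P10 control nerves, and the groups did not overlap. The log2 difference was -0.42 (standard error 0.09, adjusted p = 0.000687) from limma. In adult control nerves its values were 8.53, 8.44, 8.46 and 8.36. These lay above every adult cKO value and, apart from 8.53, below every P10 control value. The gap to controls of the same age was thus smaller than that to P10 control. Since the nerve holds cells that keep the gene, and the position of the probes on the transcript is not given in the sources used here, this is a limited check of the labels. Markers of SCs (*Sox10*, *S100b* and *Erbb3*) averaged 8.87 to 9.12 in adult cKO arrays and 8.85 to 9.25 in P10 control arrays. Skeletal muscle genes were present in the P10 control arrays to an unequal degree, with list means over 28 genes of 5.64, 6.80, 5.36 and 5.52 in adult cKO, 5.76, 6.66, 6.38 and 5.61 in adult control and 8.39, 6.36, 7.82 and 10.03 in P10 control arrays. In RNA of whole nerve, fewer cells of a type cannot be told apart from less RNA per cell. Genes of the Y chromosome were high in replicates 1 and 2 and low in replicates 3 and 4 of every group, so the groups were balanced for them.

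Of the 19505 genes, 35.7% differed between adult cKO and P10 control nerves at a Benjamini-Hochberg adjusted p under 0.05 from limma, with 3572 higher (18.3%) and 3389 lower (17.4%) in adult cKO nerves. The median log2 difference over all genes was -0.0353, and 784 of the higher and 816 of the lower genes differed by at least 1, the unit step of the log2 scale. Set against adult control nerves, the same adult cKO arrays gave 3472 higher genes (17.8%) and 2900 lower genes (14.9%), or 32.7% in all, with a median of -0.0202. Adult control against P10 control nerves, the change of a normal nerve with age, gave 2696 higher (13.8%) and 2961 lower genes (15.2%), or 29% in all, with a median of -0.0153. Without P10 control replicate 4, the array with most muscle RNA, 3268 genes were higher and 3144 lower than in P10 control nerves, and with replicate 2 as the only P10 control array, then assumed to vary like the other groups, 2436 and 2315. These 3 comparisons share arrays by pairs, so their counts are given side by side and are not independent of each other. Each list count against P10 control below is to be read beside the shares of 18.3% higher and 17.4% lower. Counts of adult cKO against adult control are to be read beside 17.8% higher and 14.9% lower. For adult control against P10 control the shares are 13.8% and 15.2%. Counts of genes outside all 8 control arrays stand beside 10.5% of all genes above and 7.63% below.

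Each adult cKO array lay nearer to the arrays of adult control nerves than to those of P10 control nerves. The root mean square difference over all genes was 0.699, 0.665, 0.716 and 0.7 log2 units from the 4 adult cKO arrays to the P10 control arrays, with a mean of 0.695 ± 0.022 (SD, n = 4). To the adult control arrays it was 0.617, 0.598, 0.624 and 0.607, with a mean of 0.611 ± 0.011. To the P10 cKO arrays, which share the genotype, it was 0.568 ± 0.018, and among the adult cKO arrays themselves 0.271. The 4 P10 control arrays differed from each other by 0.373 on average, the widest spread of the groups. Against P10 control replicate 2 alone, the P10 control array with least muscle RNA and a choice made after the data were seen, the mean distance was 0.687, and without P10 control replicate 4 it was 0.674. No test was run on these distances, since all 4 values are taken to the same control arrays.

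**Figure D1:**
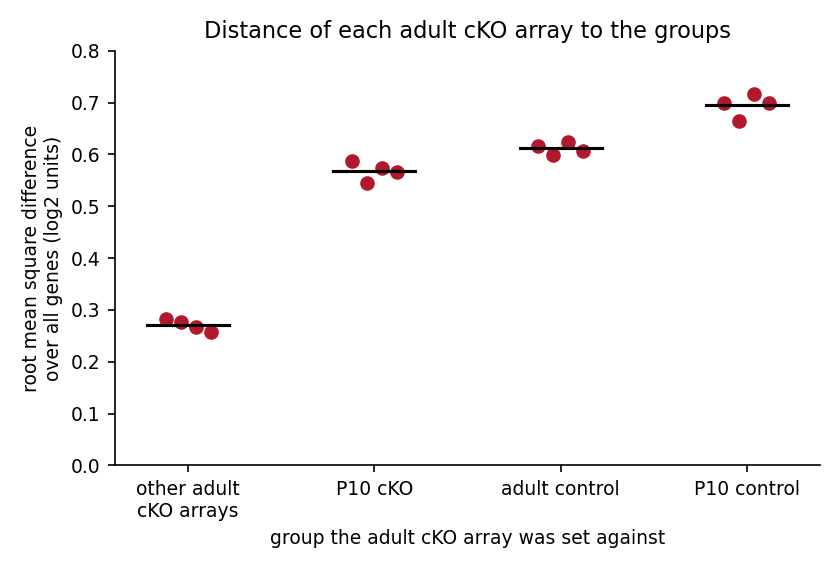
Each point is 1 of the 4 adult cKO arrays, placed at its mean root mean square log2 difference over 19505 genes to the arrays of the group named on the horizontal axis, and bars are means of the 4 points. All 4 points lie highest against P10 control (0.665 to 0.716) and lower against adult control (0.598 to 0.624) and P10 cKO (0.544 to 0.587).

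The 10 genes furthest above P10 control without overlap were *Tyrp1* (8.24), *Trpm1* (7.22), *Jchain* (6.56), *Gpnmb* (5.95), *Calb2* (5.34), *Serpina3n* (5.30), *Mup19* (4.84), *Pmel* (4.31), *Slamf7* (4.27) and *Mup9* (4.18), in log2 differences. Those furthest below were *Igf2* (-5.24), *Zim1* (-5.09), *Dlk1* (-4.84), *Mylpf* (-4.80), *Scn3b* (-4.65), *Myoz2* (-4.48), *Fa2h* (-4.45), *Mir675* (-4.41), *Septin3* (-4.29) and *Myl1* (-4.26). They take in pigment, antibody and macrophage genes on the upper side, and growth, muscle and lipid genes on the lower. *Slamf7*, a receptor of activated immune cells, had 8.69, 8.48, 8.07 and 7.87 in adult cKO nerves, 5.43, 6.17, 6.02 and 5.71 in adult control nerves and 4.42, 3.61, 4.01 and 3.99 in P10 control nerves. *Scn3b*, a sodium channel subunit, had 6.50, 5.46, 5.96 and 5.68 in adult cKO nerves, 9.45, 8.37, 9.05 and 8.27 in adult control nerves and 10.45, 10.75, 10.83 and 10.18 in P10 control nerves, 3 levels without overlap. *Mylpf*, *Myoz2* and *Myl1* are skeletal muscle genes, and with P10 control replicate 2 as the only P10 control array none of them passed (adjusted p = 0.186, 0.178 and 0.306).

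For 2047 genes (10.5%) the 4 adult cKO arrays lay above all 8 control arrays of both ages, and for 1488 genes (7.63%) below all 8, so that the mutant value fell outside the range of normal nerves at either age. This count is a description and carries no test. At the upper end stood *Tyrp1*, *Trpm1* and *Pmel*, genes of pigment cells, with *Jchain*, the joining chain of polymeric antibodies, *Calb2*, the calcium-binding protein calretinin, and the chemokine receptor gene *Cxcr4*. *Calb2* had 9.38, 9.98, 10.29 and 10.11 in adult cKO nerves, 5.58, 6.86, 5.42 and 4.97 in adult control nerves and 4.66, 4.86, 4.32 and 4.57 in P10 control nerves, and the difference from P10 control was 5.34 (standard error 0.28, adjusted p = 2.42e-12). *Cxcr4* had 9.61, 10.14, 10.06 and 9.90 in adult cKO nerves, 6.65, 7.23, 6.56 and 6.11 in adult control nerves and 6.89, 6.81, 6.62 and 6.72 in P10 control nerves. The 2 control groups overlapped for *Cxcr4*, and the mutant stood 3.17 above P10 control and 3.29 above adult control nerves. At the lower end stood *Septin3*, *Elovl7*, *Vat1l*, *Sptb*, *Frzb* and *Drp2*. *Septin3*, a septin of the cytoskeleton, had 6.03, 5.46, 4.83 and 5.26 in adult cKO nerves, 10.60, 9.88, 10.17 and 10.09 in adult control nerves and 9.42, 10.05, 9.74 and 9.51 in P10 control nerves, a difference of -4.29 (standard error 0.20, adjusted p = 5.64e-13) from P10 control. *Sptb*, an erythroid-type spectrin chain, differed by -3.83 from P10 control and by -4.59 from adult control nerves, and *Frzb*, a secreted antagonist of Wnt ligands, by -3.73 and -4.69.

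Genes of cell division stood at the level of the P10 control nerve and far above the adult control nerve. The mean over 33 genes of mitosis was 6.84, 7.12, 7.14 and 7.002 in the adult cKO arrays, 5.47, 5.64, 5.63 and 5.48 in the adult control arrays and 7.11, 6.77, 7.15 and 6.78 in the P10 control arrays. The mutant arrays thus overlapped those of P10 control nerves and left a gap of over 1 log2 unit to the adult control arrays. Against P10 control, the test called 4 of the 33 higher and 2 lower and left 27 uncalled, with a median difference of 0.06. Against adult control, 30 were higher and none lower, with a median of 1.53, and in adult control against P10 control nerves 31 were lower and none higher (median -1.39). A gene that did not pass is not shown to be equal, and the 95% interval of the difference from P10 control lay within ±0.5 for 9 of the 33, a smaller share than the 46.3% of all genes.

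*Kif2c*, a kinesin that frees wrongly attached chromosomes, had 6.39, 7.15, 7.23 and 7.07 in adult cKO nerves, 5.20, 5.08, 4.99 and 4.89 in adult control nerves and 7.43, 6.70, 7.21 and 6.70 in P10 control nerves. Its difference from P10 control was -0.05 (95% interval -0.43 to 0.33), beside 1.92 (adjusted p = 3.83e-08) from adult control. *Kif11*, the spindle motor, and *Tpx2*, the activator of Aurora A kinase, had differences of -0.06 and -0.06 from P10 control, and of 1.71 and 1.61 from adult control. *Neil3*, a DNA glycosylase of dividing cells, differed by -0.04 from P10 control and by 2.05 from adult control. *Kif2c*, *Kif11*, *Tpx2* and *Neil3* were named by a rule that picks an interval within ±0.5 from P10 control and a large difference from adult control. Their values follow from that rule, so they are examples and say nothing of the rest of the list. *Mki67*, which encodes the proliferation antigen Ki67, had 9.26, 9.78, 9.65 and 9.56 in adult cKO nerves, 7.51, 7.75, 7.79 and 6.87 in adult control nerves and 10.15, 9.66, 10.30 and 9.89 in P10 control nerves, a difference of -0.44 (standard error 0.18, adjusted p = 0.0715) from P10 control. *Cdk1*, the kinase that starts mitosis, had 6.26, 6.52, 6.65 and 6.29 in adult cKO nerves, 3.74, 3.86, 3.30 and 3.51 in adult control nerves and 6.08, 5.77, 6.39 and 5.62 in P10 control nerves, a difference of 0.47 (standard error 0.18, adjusted p = 0.0507) from P10 control. The 4 genes above P10 control were the mitotic kinase gene *Pbk* (0.89, adjusted p = 0.000114), *Kif23* (0.58), *Nuf2* (0.57) and *Anln* (0.47), and those below it were *Plk1* (-0.57) and *Kif18b* (-0.38). Of these, *Anln* lost its call without adult cKO replicate 4 (adjusted p = 0.0558) or P10 control replicate 4 (adjusted p = 0.0824) and *Kif18b* without P10 control replicate 2 (adjusted p = 0.052). The call of *Mki67* also lay at the threshold, and it passed as lower without P10 control replicate 2 (adjusted p = 0.0331), while *Cdk1* passed as higher without adult cKO replicate 1 (adjusted p = 0.0496) or P10 control replicate 3 (adjusted p = 0.0133). Of 28 genes of DNA replication, 5 were higher, 1 was lower and 22 were not called against P10 control (median 0.18). The share over all genes was 18.3% higher, so these 5 did not stand out. Against adult control 21 of the 28 were higher (median 0.67), beside 17.8% of all genes. The count of genes of DNA replication above P10 control was 3 without P10 control replicate 4, and 8 with each array centred on its median or with array weights. Among them *Pcna*, the sliding clamp of DNA polymerases, had 10.72, 10.76, 10.87 and 10.86 in adult cKO nerves, 9.59, 9.56, 9.39 and 9.21 in adult control nerves and 9.66, 9.63, 9.88 and 9.45 in P10 control nerves, so that it stood above both control groups. The macrophage genes described further on were also higher in adult cKO nerves, and which cells divided was not measured in RNA of whole nerve.

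Promoters of mitotic genes often carry CCAAT boxes beside a cell cycle homology element, and 120 bases before the start of *Cdk1* (chr10:69352913-69353032, minus strand) and of *Ccnb2* (chr9:70421555-70421674, minus strand), the cyclin B2 gene, are shown from RefSeq, build GRCm38.p6, as examples from this list, with CCAAT or TTTGAA on either strand in capitals.
Cdk1: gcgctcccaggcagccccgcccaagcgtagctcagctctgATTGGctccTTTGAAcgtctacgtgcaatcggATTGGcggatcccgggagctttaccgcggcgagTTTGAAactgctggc
Ccnb2: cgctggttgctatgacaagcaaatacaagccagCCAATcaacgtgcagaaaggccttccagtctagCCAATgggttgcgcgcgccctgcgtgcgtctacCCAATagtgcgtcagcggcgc
The *Cdk1* window holds 2 CCAAT boxes, read as ATTGG on the printed strand, and 2 matches of TTTGAA, and the *Ccnb2* window holds 3 CCAAT boxes. Over 250 bases before the start, CCAAT was found in 19 of the 27 mitosis genes with a promoter in the reference table (70.4%), against 39.2% of all 15691 tested genes with one, and TTTGAA in 9 of the 27 (33.3%), against 16.1%. *Ccnb2* itself had a difference of -0.04 from P10 control and of 0.95 from adult control. A match of letters is a description and not a bound site.

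Genes of postnatal growth were low in the adult cKO nerve, as in the adult control nerve or lower. Of 21 imprinted and growth genes, 17 were lower than in P10 control nerves, 1 was higher and 3 did not pass, with a median of -0.93. Against adult control nerves 12 were lower and 1 higher (median -0.47), and 11 lay below all 8 control arrays. *Igf2*, the fetal growth factor, had 7.87, 8.28, 7.79 and 7.58 in adult cKO nerves, 8.66, 8.70, 9.75 and 9.48 in adult control nerves and 12.81, 13.05, 13.11 and 13.49 in P10 control nerves. No mutant array reached the lowest array of either control group, and the difference from P10 control was -5.24 (standard error 0.21, adjusted p = 4.83e-14). *Dlk1*, an imprinted membrane protein of immature cells, had 5.86, 5.73, 5.53 and 5.27 in adult cKO nerves, 5.80, 6.28, 6.39 and 6.08 in adult control nerves and 10.41, 10.45, 10.24 and 10.65 in P10 control nerves, a difference of -4.84 (standard error 0.14, adjusted p = 1.35e-15) from P10 control. *Zim1* (-5.09), *Peg3* (-3.67) and *Mest* (-3.64), imprinted genes expressed from the paternal or maternal copy alone, followed the same way, and so did *Plagl1* (-2.25), an imprinted zinc finger factor whose difference from adult control was 0.22 (95% interval -0.04 to 0.49). The exception was *Ptn*, the growth factor pleiotrophin, with 10.01, 10.24, 10.37 and 10.28 in adult cKO nerves, 8.11, 8.59, 7.95 and 7.78 in adult control nerves and 8.67, 8.29, 8.32 and 8.52 in P10 control nerves, a difference of 1.78 (standard error 0.14, adjusted p = 1.17e-09) from P10 control.

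*Mir675* was also among the 10 genes furthest below P10 control. Its transcript cluster had 7.72, 7.73, 7.89 and 7.66 in adult cKO nerves, 8.52, 7.98, 9.32 and 9.21 in adult control nerves and 12.06, 11.97, 12.04 and 12.57 in P10 control nerves, a difference of -4.41 (standard error 0.20, adjusted p = 4.01e-13) from P10 control. The microRNA is cut from the transcript of the imprinted *H19* gene, and an array of this kind does not tell the precursor from its host transcript, so the value says nothing of the mature forms. These lie on chromosome 7 of GRCm38.p6, minus strand (chr7:142577112-142577133 for the 5p arm and chr7:142577078-142577099 for the 3p arm), and are shown from RefSeq because *Mir675* is one of the leading genes on the lower side, with the seed, bases 2 to 8, in capitals.
mmu-miR-675-5p: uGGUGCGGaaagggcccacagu
mmu-miR-675-3p: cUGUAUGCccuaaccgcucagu
The seeds of the arms differ.

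Genes of the extracellular matrix were lower than in P10 control nerves, and many were lower than in adult control nerves too. Of 29 genes of fibrillar collagen and elastic matrix, 24 were lower and 2 higher than in P10 control (median -1.40), 15 were lower and 4 higher than in adult control (median -0.47), and 14 lay below all 8 control arrays. *Col1a1*, the main chain of type I collagen, had 10.14, 10.20, 10.03 and 9.94 in adult cKO nerves, 11.04, 11.10, 11.08 and 11.03 in adult control nerves and 12.38, 12.69, 12.62 and 12.48 in P10 control nerves, 3 levels without overlap. Its difference from P10 control was -2.47 (standard error 0.10, adjusted p = 9.28e-14) and from adult control -0.99 (adjusted p = 1.16e-07). *Col5a1* (-2.71), *Col6a3* (-2.36), *Col6a2* (-2.17), *Col6a1* (-1.89) and *Col1a2* (-1.75) were also lower than in P10 control. The 2 genes above P10 control were *Fbln1* (0.59), a fibulin of elastic fibres, and the collagen-modifying enzyme gene *Plod2* (0.58). Fibroblast markers (*Dpt*, *Col1a1*, *Lum* and *Dcn*) averaged 10.5 to 10.9 in adult cKO, 11.2 to 11.5 in adult control and 11.2 to 11.6 in P10 control arrays. Of 21 genes of the basement membrane, 14 were lower than in P10 control, among them *Lamb1* (-1.95), *Nid2* (-2.12), *Col4a2* (-1.90) and *Hspg2* (-1.90), and 1 was higher, or 2 without P10 control replicate 2 and after centring each array on its median. The 1 higher gene was *Lama1*, a laminin chain of embryonic basement membranes, with 8.72, 9.43, 9.68 and 9.84 in adult cKO nerves, 6.49, 7.08, 6.08 and 6.30 in adult control nerves and 6.22, 6.06, 6.96 and 6.57 in P10 control nerves, a difference of 2.96 (standard error 0.22, adjusted p = 8.26e-10) from P10 control.

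**Figure D2:**
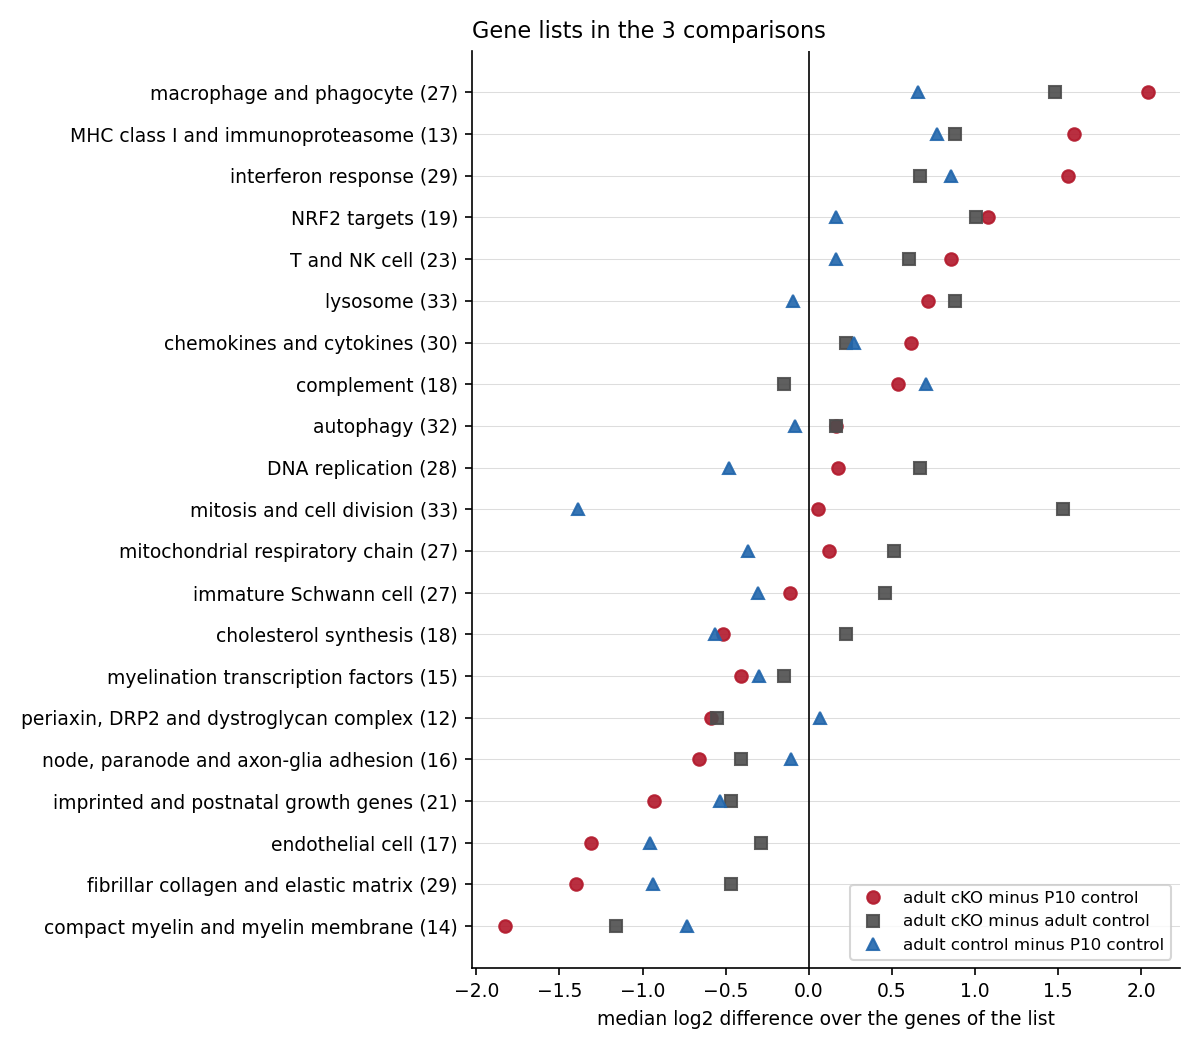
Median log2 difference over the genes of 21 lists (number of measured genes in brackets) for adult cKO minus P10 control (circles), adult cKO minus adult control (squares) and adult control minus P10 control (triangles). For mitosis the circle lies at 0.06, with the square at 1.53 and the triangle at -1.39, whereas for compact myelin the circle is lowest of the 3 at -1.83 and for macrophages highest at 2.04.

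Myelin genes were below the level of both control nerves. Of 14 genes of compact myelin and the myelin membrane, 13 were lower and 1 was higher than in P10 control nerves (median -1.83), 11 were lower and none higher than in adult control nerves (median -1.16), and 10 lay below all 8 control arrays. *Mbp*, the gene of myelin basic protein, had 10.89, 10.56, 10.62 and 10.53 in adult cKO nerves, 13.003, 12.93, 13.13 and 12.87 in adult control nerves and 13.14, 13.23, 13.31 and 13.01 in P10 control nerves. The control groups overlapped and every mutant array lay below every control array, and the difference from P10 control was -2.52 (standard error 0.10, adjusted p = 4.92e-14). *Ncmap*, a membrane protein of noncompact myelin, had 7.72, 7.28, 7.31 and 7.26 in adult cKO nerves, 10.28, 9.95, 10.04 and 9.66 in adult control nerves and 11.18, 11.12, 11.07 and 10.74 in P10 control nerves, a difference of -3.63 (standard error 0.13, adjusted p = 1.53e-14) from P10 control. *Mag* (-3.10), which encodes an adhesion protein of the inner myelin surface, *Cldn19* (-3.12), a claudin of SC autotypic junctions, *Pmp2* (-2.68), the lipid carrier of peripheral myelin, *Cnp* (-2.24), *Mal* (-2.01) and *Pmp22* (-1.28) were lower than in P10 control as well. *Mpzl2* was the exception, at 0.86 above P10 control (adjusted p = 0.00219) and -0.57 from adult control.

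Lipid genes of the sheath did not all move one way. Of 23 genes of fatty acid and myelin lipid synthesis, 14 were lower and 4 higher than in P10 control (median -0.49). *Ugt8a*, which makes the galactolipids of myelin, had 9.02, 8.69, 8.83 and 8.73 in adult cKO nerves, 12.69, 12.40, 12.55 and 12.30 in adult control nerves and 12.62, 12.53, 12.71 and 12.47 in P10 control nerves, and differed by -3.77 (standard error 0.12, adjusted p = 1.2e-14) from P10 control. *Fa2h*, the fatty acid 2-hydroxylase, had 6.92, 6.70, 6.63 and 6.52 in adult cKO nerves, 10.12, 9.76, 9.72 and 9.38 in adult control nerves and 11.18, 11.23, 11.03 and 11.11 in P10 control nerves, and the elongase gene *Elovl7* differed by -4.22 from P10 control. The 4 higher genes were *Gm2a* (0.86), *Elovl5* (0.58), *Degs1* (0.56) and, with a call that did not hold on leaving out any 1 adult cKO replicate or P10 control replicate 1, 3 or 4 (adjusted p of 0.0519 to 0.166), *Sptlc1* (0.32), of which *Gm2a* encodes the activator protein of ganglioside breakdown and *Elovl5* an elongase. Of 18 genes of cholesterol synthesis, 11 were lower and none higher than in P10 control (median -0.51), but 6 were higher and 4 lower than in adult control (median 0.23). *Hmgcs1*, an early enzyme of the pathway, was below both groups (-1.12 from P10 control and -0.91 from adult control), whereas *Lss*, which closes the sterol rings, was -1.22 from P10 control and 0.19 from adult control, and *Mvd* -1.09 and 0.36.

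Genes of the junction between axon and SC were low as well. Of 16 genes of node, paranode and axon-glia adhesion, 9 were lower and 1 was higher than in P10 control (median -0.66), and 8 lay below all 8 control arrays. *Cadm3*, an adhesion protein of the internode, had 6.14, 6.14, 6.04 and 6.08 in adult cKO nerves, 9.84, 9.59, 9.48 and 9.32 in adult control nerves and 9.43, 9.74, 9.72 and 9.27 in P10 control nerves, a difference of -3.44 (standard error 0.13, adjusted p = 1.96e-14) from P10 control and of -3.46 (adjusted p = 4e-14) from adult control. *Nfasc*, the neurofascin gene (-2.38), and *Cadm4*, the SC partner of the internodal adhesion (-2.28), were lower too, while *Ezr*, the ezrin of SC microvilli, was higher by 0.91. Of 12 genes of the periaxin, DRP2 and dystroglycan complex, which ties the SC surface to its basement membrane, 9 were lower and 1 higher than in P10 control (median -0.59). *Drp2* had 8.11, 7.11, 7.16 and 6.92 in adult cKO nerves, 11.75, 11.71, 11.73 and 11.61 in adult control nerves and 10.92, 11.14, 11.11 and 10.88 in P10 control nerves, a difference of -3.69 (standard error 0.17, adjusted p = 3.68e-13) from P10 control, and *Sgcd*, a sarcoglycan, differed by -2.15. The single higher gene was *Dtna*, a dystrobrevin, at 1.05 from P10 control and -0.47 from adult control. Over all genes 17.4% were lower and 18.3% higher than in P10 control. Of 20 axonal and neurofilament genes, 4 were lower and 2 higher than in P10 control, and 14 did not pass (median -0.13). The lower ones were *Rtn1* (-2.41), *Sncg* (-0.99), *Syp* (-0.58) and *Nefh* (-0.48), and the higher ones the microtubule protein genes *Mapt* (1.19) and *Map1b* (0.84).

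Transcription factors that drive myelination were lower than in P10 control nerves or did not pass the test. Of 15 promyelinating and myelinating factors, 8 were lower, none was higher and 7 did not pass against P10 control (median -0.41). *Egr2* had 7.91, 8.60, 7.95 and 7.81 in adult cKO nerves, 10.04, 9.48, 9.77 and 9.49 in adult control nerves and 10.70, 11.06, 11.13 and 11.06 in P10 control nerves, 3 levels without overlap, with a difference of -2.92 (standard error 0.16, adjusted p = 4.08e-12) from P10 control. *Myrfl*, a relative of the myelin regulatory factor, had 5.30, 4.88, 4.54 and 5.14 in adult cKO nerves, 8.30, 7.51, 7.92 and 7.57 in adult control nerves and 7.94, 7.86, 8.24 and 8.03 in P10 control nerves, a difference of -3.05 (standard error 0.17, adjusted p = 5.44e-12) from P10 control. *Srebf2*, the regulator of sterol synthesis, was also below both groups (-1.03 from P10 control and -0.37 from adult control). *Pou3f1*, the promyelinating factor Oct6, instead had 7.92, 8.50, 8.09 and 7.95 in adult cKO nerves, 6.38, 6.82, 6.68 and 6.25 in adult control nerves and 8.09, 7.91, 7.72 and 7.88 in P10 control nerves, so the mutant overlapped P10 control (difference 0.22, 95% interval -0.06 to 0.50) and stood 1.58 above adult control. *Sox10*, which marks SCs at every stage, differed by -0.10 from P10 control (95% interval -0.35 to 0.15), and *Pou3f2* and *Myrf* by -0.18 and -0.01, none of them called. *Sox9*, another factor of the Sox family, was lower than in P10 control (-1.28).

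Of 27 genes of immature SCs and of factors that hold back myelination, 9 were higher, 10 lower and 8 did not pass against P10 control (median -0.11), while 14 were higher and 7 lower than in adult control (median 0.46). *Sox2*, a factor of immature and injured SCs, had 8.71, 8.74, 8.80 and 8.76 in adult cKO nerves, 7.73, 7.22, 7.22 and 7.61 in adult control nerves and 8.19, 7.24, 7.32 and 7.56 in P10 control nerves, a difference of 1.18 (standard error 0.16, adjusted p = 4.06e-06) from P10 control. *Id2*, which blocks DNA binding by its helix-loop-helix partners, had 10.89, 10.90, 11.19 and 11.25 in adult cKO nerves, 7.37, 8.59, 7.52 and 8.02 in adult control nerves and 9.29, 8.68, 8.58 and 8.47 in P10 control nerves, a difference of 2.30 (standard error 0.22, adjusted p = 3.19e-08). For both genes the mutant arrays lay above all 8 control arrays. *Hey2*, a target of Notch signalling, was higher than in P10 control by 2.00, *Pax3* by 0.44 and *Tfap2a* by 0.53, the last pair being factors of SC precursors. The calls of *Pax3* and *Tfap2a* were lost on leaving out single arrays, that of *Pax3* without adult cKO replicate 2 or 3 or P10 control replicate 1 (adjusted p = 0.0732, 0.0562 and 0.0972) and that of *Tfap2a* without adult cKO replicate 3 or 4 or P10 control replicate 1 (adjusted p = 0.0829, 0.0503 and 0.122). On the other side were *Dhh*, the hedgehog ligand of SCs (-2.10), *Ngfr*, the low-affinity neurotrophin receptor (-1.68), the neuregulin receptor gene *Erbb2* (-1.19) and *Jun*, a factor of repair SCs, whose call was lost without adult cKO replicate 3 or 4 or P10 control replicate 1 (-0.52, adjusted p = 0.0224). *Ngfr*, a usual marker of immature SCs, had 8.69, 8.49, 8.005 and 7.81 in adult cKO nerves, 8.61, 8.51, 8.69 and 8.77 in adult control nerves and 9.78, 10.07, 10.28 and 9.57 in P10 control nerves, so the mutant overlapped adult control and below P10 control. *Cdh19*, a cadherin of SC precursors, was 1.18 above P10 control but -0.55 from adult control. Of 18 repair SC genes, 6 were higher, 1 was lower and 11 did not pass against P10 control (median 0.14), and without adult cKO replicate 3 there were 2 lower ones. The growth factor genes *Nrg1* (2.29) and *Btc* (1.71) and the engulfment receptor gene *Megf10* (1.48) were higher, *Sema3c* (-1.75) was lower, and *Atf3* (0.11) and *Gap43* (-0.22) did not pass, though *Gap43* passed as lower without adult cKO replicate 2 (adjusted p = 0.0361).

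**Figure D3:**
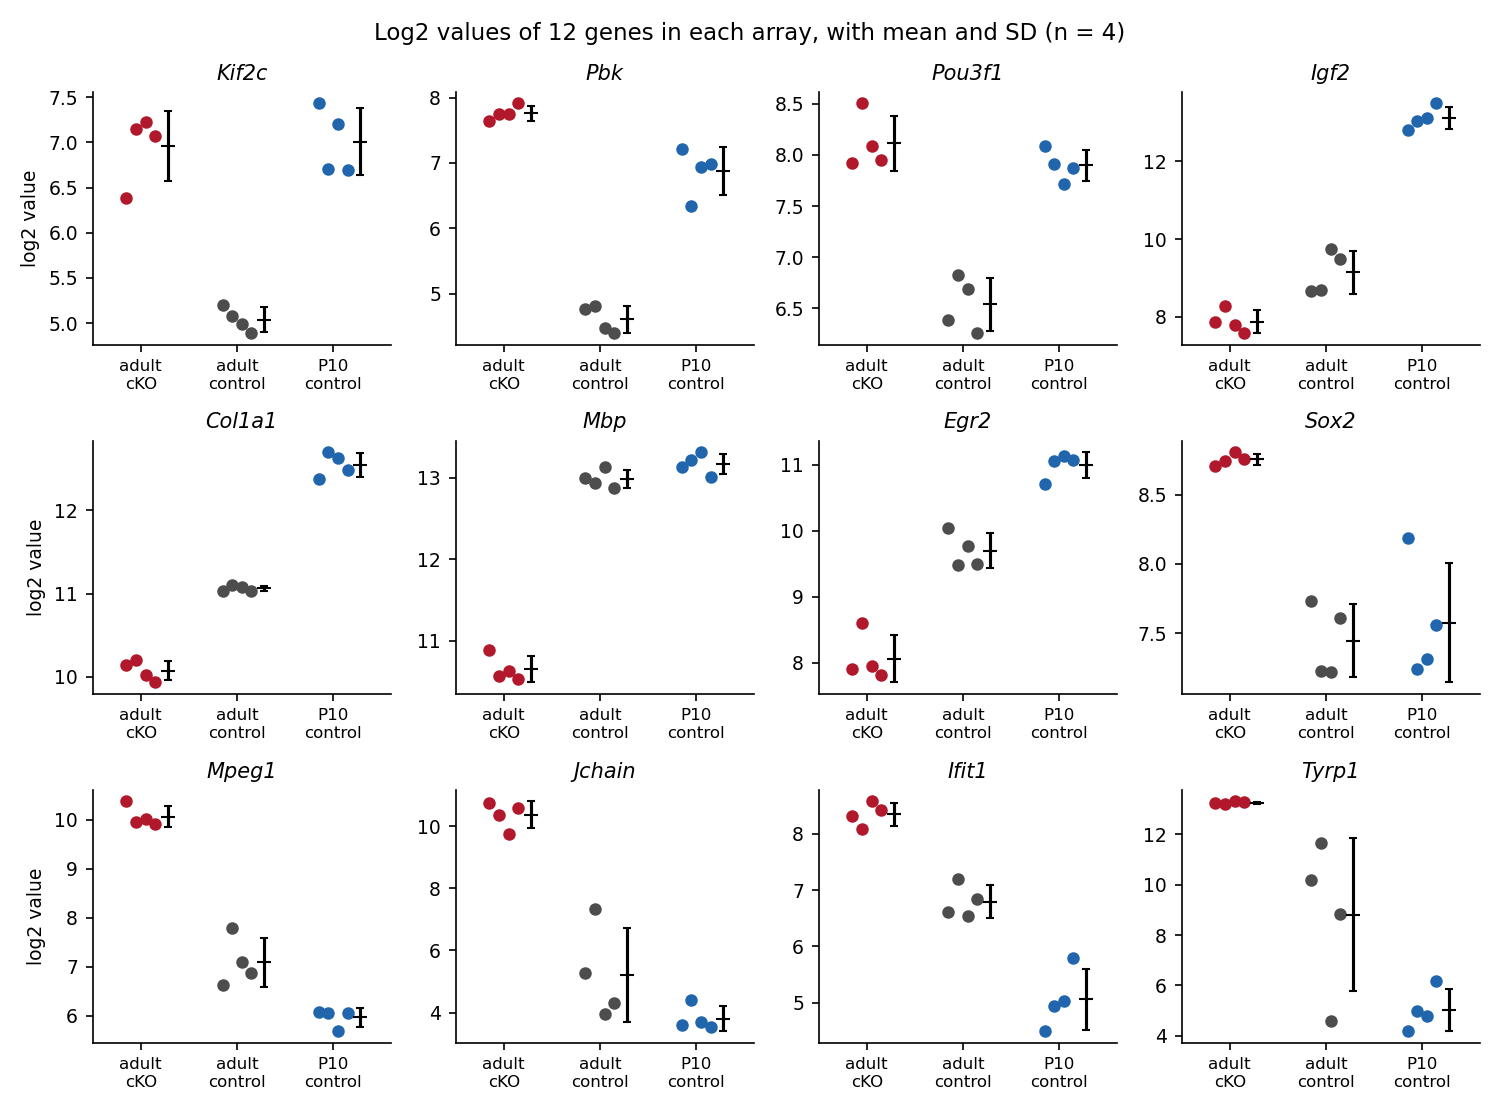
Log2 values of 12 genes in the 4 adult cKO, 4 adult control and 4 P10 control arrays (points, 1 per array), with the mean and SD of each group beside them. *Kif2c* and *Pou3f1* overlap between adult cKO and P10 control, *Igf2*, *Col1a1*, *Mbp* and *Egr2* are lowest in adult cKO, and *Pbk*, *Sox2*, *Mpeg1*, *Jchain*, *Ifit1* and *Tyrp1* are highest there.

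Most macrophage genes stood above both control nerves. Of 27 macrophage and phagocyte genes, 24 were higher, 1 was lower (2 without adult cKO replicate 2) and 2 did not pass against P10 control (median 2.04), and 22 were higher and 3 lower than in adult control (median 1.48). In normal nerves 18 of them were also higher in adult than in P10 nerves (median 0.66), and 20 lay above all 8 control arrays in the mutant. The list mean was 8.84 to 9.07 in adult cKO and 7.115 to 7.42 in P10 cKO arrays. It was 7.39 to 7.835 in adult control and 6.62 to 6.94 in P10 control arrays. *Mpeg1*, the perforin-like protein of macrophages, had 10.37, 9.95, 10.01 and 9.91 in adult cKO nerves, 6.63, 7.78, 7.10 and 6.86 in adult control nerves and 6.07, 6.05, 5.68 and 6.06 in P10 control nerves, a difference of 4.10 (standard error 0.19, adjusted p = 7.02e-13) from P10 control. *Gpnmb*, a glycoprotein of lipid-laden macrophages and of pigment cells, had 11.34, 11.35, 11.19 and 11.21 in adult cKO nerves, 8.63, 9.13, 7.77 and 8.14 in adult control nerves and 5.61, 5.27, 5.49 and 4.93 in P10 control nerves, a difference of 5.95 (standard error 0.21, adjusted p = 1.21e-14). *Lyz2*, the lysozyme gene (3.55), *Ms4a7* (3.13), *Cd84* (2.83) and the complement chain gene *C1qc* (2.36) were higher too. The lower gene was *Lyve1* (-0.94), and *Cd163* (-0.44, called without adult cKO replicate 2 at adjusted p = 0.0326) and *Folr2* (-0.20) did not pass, all of them markers of macrophages resident in tissue, and their differences from adult control were -1.36, -1.84 and -1.09. Macrophage markers used for the check of cell types (*Adgre1*, *Csf1r*, *C1qa* and *Aif1*) averaged 9.46 to 9.69 in adult cKO, 7.49 to 7.79 in adult control and 6.86 to 7.44 in P10 control arrays.

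Of 23 genes of T and NK cells, 20 were higher and none lower than in P10 control (median 0.86), and 15 lay above all 8 control arrays, beside 2 that were higher in adult than in P10 control nerves. *Cd3e*, a chain of the T cell receptor complex, had 6.06, 6.13, 6.04 and 6.40 in adult cKO nerves, 4.62, 4.55, 5.40 and 5.08 in adult control nerves and 4.52, 4.87, 4.62 and 4.73 in P10 control nerves, a difference of 1.47 (standard error 0.16, adjusted p = 2.31e-07) from P10 control, and *Cd8b1* differed by 1.45. Values this low lie near the bottom of the scale of these arrays, where differences tend to be understated. *Jchain* had 10.75, 10.37, 9.77 and 10.59 in adult cKO nerves, 5.26, 7.33, 3.95 and 4.32 in adult control nerves and 3.59, 4.42, 3.69 and 3.53 in P10 control nerves, a difference of 6.56 (standard error 0.46, adjusted p = 2.14e-10) from P10 control. Of the 17 B and plasma cell genes, however, 6 were higher, 1 was lower and 10 did not pass (median 0.21), and the B cell genes *Ms4a1* and *Cd79a* had -0.15 and 0.39, neither of them called, though *Cd79a* passed without adult cKO replicate 3 (adjusted p = 0.0375). Of 15 neutrophil genes 8 were higher, led by *Csf3r* (2.54) and *Retnlg* (1.95), with *S100a8* at 1.53 and *S100a9* at 0.99. Of 12 mast cell genes 4 were higher and 1 was lower than in P10 control, while 4 were lower and 2 higher than in adult control.

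All 13 genes of MHC class I presentation and the immunoproteasome were higher than in P10 control (median 1.60), and 12 of them were higher than in adult control (median 0.88). *H2-D1* had 9.93, 9.72, 9.86 and 9.99 in adult cKO nerves, 7.85, 8.25, 8.28 and 8.64 in adult control nerves and 6.85, 7.02, 6.91 and 7.53 in P10 control nerves, and the light chain gene *B2m* 13.59, 13.55, 13.59 and 13.61 in adult cKO nerves, 12.52, 12.57, 12.34 and 12.47 in adult control nerves and 12.10, 11.43, 11.45 and 11.84 in P10 control nerves. Their differences from P10 control were 2.80 (standard error 0.17, adjusted p = 2.07e-11) and 1.88 (standard error 0.12, adjusted p = 1.07e-10), and probes of *H2-D1*, *H2-K1* (2.54) and *H2-Q4* (2.11) may cross-react, since these genes are near-identical in parts. Of 11 genes of MHC class II and its loading, 6 were higher and 2 lower than in P10 control (median 0.71). *H2-Aa* had 10.92, 10.40, 10.22 and 9.94 in adult cKO nerves, 9.20, 9.91, 9.44 and 9.37 in adult control nerves and 6.81, 7.05, 7.05 and 7.07 in P10 control nerves, a difference of 3.38 (standard error 0.17, adjusted p = 1.13e-12), and *Ctss*, the protease that trims the class II chaperone, differed by 3.62. The lower pair, *H2-DMa* (-1.18) and *H2-DMb1* (-0.67), forms the peptide exchange factor of class II. Of 18 complement genes 10 were higher and 1 lower than in P10 control (median 0.54), but against adult control 5 were higher and 6 lower (median -0.15), and 16 of the 18 were also higher in adult than in P10 control nerves. *C4b* stood at 3.41 from P10 control, and *Cd55*, the decay-accelerating inhibitor of complement, was lower with 6.24, 6.76, 6.38 and 6.76 in adult cKO nerves, 9.73, 9.58, 9.78 and 9.51 in adult control nerves and 8.60, 8.06, 8.53 and 8.27 in P10 control nerves. Of 30 chemokine and cytokine genes 20 were higher and 1 lower than in P10 control (median 0.61), and 14 were higher and 5 lower than in adult control, with *Ccl2* at 2.10, *Cxcl16* at 2.41, *Cxcl5* at 2.74, *Ccl3* at 2.22, *Il1b* at 1.31 and *Tnf* at 1.06. The lower one was *Cxcl12* (-1.75), a chemokine of stromal cells and the ligand of *Cxcr4*.

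Of 29 interferon response genes, 28 were higher than in P10 control and only *Rsad2* (0.36) did not pass (median 1.56), 20 were higher than in adult control (median 0.67), and 22 were higher in adult than in P10 control nerves (median 0.85). *Ifit1*, an RNA-binding effector, had 8.32, 8.08, 8.58 and 8.42 in adult cKO nerves, 6.61, 7.19, 6.54 and 6.85 in adult control nerves and 4.49, 4.94, 5.03 and 5.80 in P10 control nerves, a difference of 3.29 (standard error 0.24, adjusted p = 4.64e-10) from P10 control. *Isg15*, a ubiquitin-like protein, had 7.27, 7.43, 7.57 and 7.50 in adult cKO nerves, 5.90, 6.31, 5.70 and 5.48 in adult control nerves and 4.75, 5.03, 4.88 and 6.02 in P10 control nerves. The highest P10 control array for both genes was replicate 4, and without it all 29 were higher, *Rsad2* included (adjusted p = 0.00802). *Ifit3b* (3.30), *Irgm1* (2.33) and *Gbp2* (2.25) belong to families with near-identical copies, so their values may be shared with relatives. Promoters of such genes hold the interferon-stimulated response element, and 120 bases before the start of *Ifit1* (chr19:34640769-34640888, plus strand) and *Isg15* (chr4:156200819-156200938, minus strand) are shown from RefSeq, build GRCm38.p6, with its core, GAAA and GAAA with any pair of bases (NN) between them, on either strand in capitals, where overlapping matches run together.
Ifit1: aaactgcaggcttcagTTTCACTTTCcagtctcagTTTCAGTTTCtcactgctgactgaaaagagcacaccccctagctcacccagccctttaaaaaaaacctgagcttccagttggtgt
Isg15: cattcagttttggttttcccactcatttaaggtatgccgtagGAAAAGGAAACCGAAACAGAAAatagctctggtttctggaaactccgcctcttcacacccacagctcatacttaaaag
The core was found within 250 bases before the start in 15 of the 21 interferon genes with a promoter in the table (71.4%), against 3.47% of all such genes tested, and in 2 of the 12 MHC class I genes (16.7%).

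**Figure D4:**
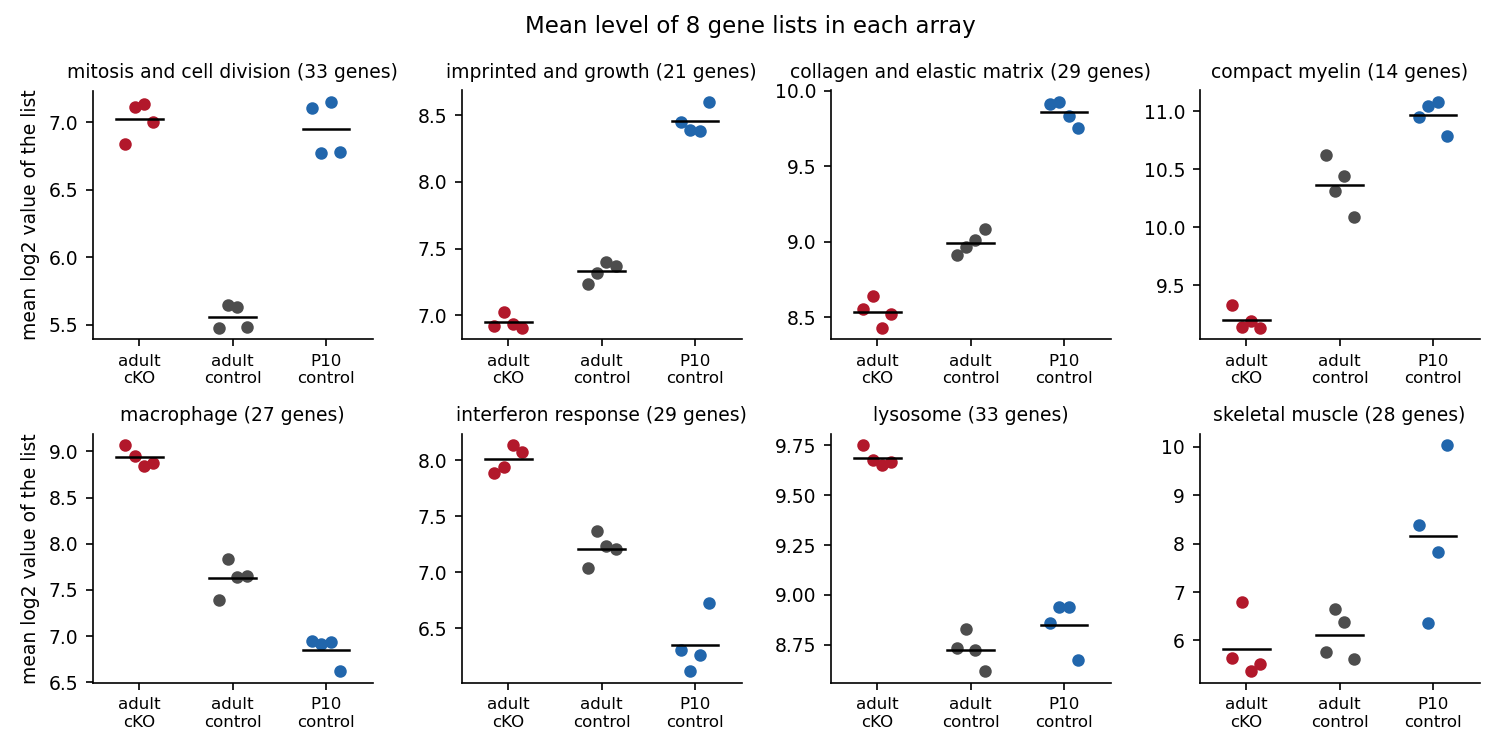
Mean log2 value over the genes of 8 lists in each array of adult cKO, adult control and P10 control nerves (points), with the mean of the 4 arrays as a bar. The mitosis means of adult cKO and P10 control arrays overlap, those of the macrophage, interferon and lysosome lists are highest in adult cKO, those of myelin, matrix and growth genes lowest, and the skeletal muscle means of the P10 control arrays spread from 6.36 to 10.03.

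Pigment genes gave the largest single differences. *Tyrp1*, an enzyme of melanin synthesis, had 13.24, 13.21, 13.31 and 13.28 in adult cKO nerves, 10.19, 11.66, 4.57 and 8.82 in adult control nerves and 4.17, 4.97, 4.77 and 6.16 in P10 control nerves. The mutant arrays lay close together and the adult control arrays spread widely, and the difference from P10 control was 8.24 (standard error 0.86, adjusted p = 9.85e-08). *Trpm1*, a cation channel of melanocytes, had 12.17, 12.10, 12.41 and 12.42 in adult cKO nerves, 8.38, 9.30, 5.90 and 7.16 in adult control nerves and 4.85, 4.46, 4.90 and 5.998 in P10 control nerves, a difference of 7.22 (standard error 0.45, adjusted p = 3.95e-11). *Pmel*, the fibril protein of melanosomes, had 10.23, 10.93, 11.04 and 11.02 in adult cKO nerves, 6.94, 7.82, 5.38 and 6.12 in adult control nerves and 6.68, 6.13, 6.51 and 6.66 in P10 control nerves, a difference of 4.31 (standard error 0.32, adjusted p = 7.06e-10). Of 17 pigment-cell and melanosome genes, a list written with these values known, 8 were higher and 1 was lower than in P10 control (median 0.35). Besides *Tyrp1*, *Trpm1*, *Pmel* and *Gpnmb*, the higher ones were *Rab27a* (1.80), *Dct* (1.66), *Kit* (1.36) and *Rab38* (1.00). The lower one, a call lost on leaving out adult cKO replicate 2, 3 or 4 or P10 control replicate 2, 3 or 4 (adjusted p of 0.0593 to 0.119), was *Tyr* (-0.39), the tyrosinase gene that starts melanin synthesis, and *Mitf*, the master factor of melanocytes, was -0.20 from P10 control and did not pass. The mean of the pigment list was 7.423 to 7.511 in adult cKO and 7.404 to 7.538 in P10 cKO arrays. It was 5.673 to 6.517 in adult control and 5.446 to 5.723 in P10 control arrays. P10 cKO nerves thus already stood above both control groups, at the level of adult cKO nerves. The 120 bases before the start of *Tyrp1* (chr4:80834093-80834212, plus strand) are shown from RefSeq, build GRCm38.p6, with CATGTG in capitals, the core of the box bound by factors of the MITF family.
Tyrp1: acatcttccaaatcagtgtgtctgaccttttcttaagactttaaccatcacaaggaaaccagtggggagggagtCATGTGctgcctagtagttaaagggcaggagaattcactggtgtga
CATGTG on either strand was found within 250 bases before the start in 7 of the 12 pigment genes with a promoter in the table (58.3%), against 11.5% of all such genes tested.

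Lysosome genes were above both control nerves. Of 33, 26 were higher and none lower than in P10 control (median 0.72). Against adult control 32 were higher (median 0.88), and 23 lay above all 8 control arrays. The list mean was 9.65 to 9.75 in adult cKO and 9.24 to 9.53 in P10 cKO arrays. It was 8.62 to 8.83 in adult control and 8.67 to 8.94 in P10 control arrays, so P10 cKO nerves already stood above both. *Hexa*, the subunit of a ganglioside hydrolase, had 10.29, 10.40, 10.32 and 10.36 in adult cKO nerves, 8.52, 8.76, 8.42 and 8.56 in adult control nerves and 8.69, 8.76, 8.70 and 8.26 in P10 control nerves, a difference of 1.74 (standard error 0.12, adjusted p = 2.24e-10) from P10 control. *Gla* (2.02), the galactosidase lost in Fabry disease, *Atp6v1b2* (2.01), a subunit of the proton pump, and the membrane protein gene *Cd63* (1.82) were higher as well. *Lamp1*, the marker protein of the lysosomal membrane, had 11.52, 11.50, 11.51 and 11.53 in adult cKO nerves, 10.96, 10.82, 10.72 and 10.68 in adult control nerves and 11, 11.08, 11.15 and 10.83 in P10 control nerves, a difference of 0.50 (standard error 0.09, adjusted p = 0.00025). Its promoter holds several copies of CACGTG, the core of the element of coordinated lysosomal genes, and the 120 bases before its start (chr8:13159041-13159160, plus strand; RefSeq, GRCm38.p6) are shown with these in capitals.
Lamp1: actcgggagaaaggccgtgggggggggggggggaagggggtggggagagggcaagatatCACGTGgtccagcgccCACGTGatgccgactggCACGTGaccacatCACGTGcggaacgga
There are 4 copies in this window. Within 250 bases before the start CACGTG was found in 10 of the 28 lysosome genes with a promoter in the table (35.7%), against 7.92% of all such genes tested. Macrophages are rich in lysosomes and their markers were higher in the same arrays, as given above, and their part in the lysosome values was not tested.

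*Sqstm1*, the autophagy receptor p62, had 11.23, 11.23, 11.14 and 11.20 in adult cKO nerves, 9.83, 10.02, 9.69 and 9.55 in adult control nerves and 9.73, 9.96, 9.92 and 9.69 in P10 control nerves, a difference of 1.38 (standard error 0.12, adjusted p = 4.38e-09) from P10 control. Over all genes 18.3% were higher and 17.4% lower than in P10 control. Of 32 autophagy genes 15 were higher, 6 lower and 11 not called against P10 control (median 0.16). *Gabarapl1* (0.83), *Map1lc3b* (0.77) and *Atg12* (0.72), parts of the conjugation systems that build the autophagosome, were among the higher, with *Pik3c3* (0.65), the catalytic partner of Beclin 1, and *Wipi1* (-1.07), an effector of the lipid it makes, was lower. Of 19 targets of NRF2, the factor of the antioxidant response that p62 can release, 17 were higher and none lower than in P10 control (median 1.08). The mean of the NRF2 list was 9.34 to 9.49 in adult cKO and 9.09 to 9.30 in P10 cKO arrays. It was 8.44 to 8.62 in adult control and 8.15 to 8.32 in P10 control arrays, so P10 cKO nerves already stood above both. *Nqo1*, a quinone reductase, had 8.86, 8.56, 8.72 and 8.81 in adult cKO nerves, 6.98, 7.31, 6.80 and 6.60 in adult control nerves and 5.47, 5.97, 5.94 and 5.38 in P10 control nerves, a difference of 3.05 (standard error 0.17, adjusted p = 7.14e-12) from P10 control. *Gstm1* (2.19), *Slc7a11* (1.70), *Prdx1* (1.64) and *Txnrd1* (1.27) were higher too, and *Me1*, whose call was lost without adult cKO replicate 4 (adjusted p = 0.172) or P10 control replicate 1, 3 or 4 (0.0574 to 0.0716), was 0.51 from P10 control but -1.07 from adult control. Of 20 p53 targets and stress genes 9 were higher, 2 lower and 9 not called (median 0.37). *Cdkn1a*, the cell cycle inhibitor p21, had 8.13, 8.23, 7.52 and 7.52 in adult cKO nerves, 9.62, 9.26, 9.17 and 8.90 in adult control nerves and 11.09, 10.42, 10.30 and 10.63 in P10 control nerves, a difference of -2.76 (standard error 0.18, adjusted p = 1.06e-10) from P10 control and of -1.39 (adjusted p = 3.46e-06) from adult control. *Gadd45a* (1.82), *Eda2r* (2.40) and *Plk2* (1.65), other targets of p53, were higher than in P10 control, and *Bbc3* (-0.38) was lower, a call lost on leaving out adult cKO replicate 2, 3 or 4 or P10 control replicate 2, 3 or 4 (adjusted p of 0.066 to 0.131).

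Genes of vessels, muscle and fat were lower than in P10 control nerves. All 17 endothelial genes were lower than in P10 control (median -1.31), all 17 were lower in adult control than in P10 control nerves (median -0.96), and 6 were lower in adult cKO than in adult control nerves (median -0.29). *Kdr*, the receptor of vascular endothelial growth factor, had 7.11, 6.86, 6.71 and 6.89 in adult cKO nerves, 7.54, 7.60, 7.87 and 8.49 in adult control nerves and 9.60, 9.85, 9.45 and 9.71 in P10 control nerves, a difference of -2.76 (standard error 0.16, adjusted p = 9.85e-12) from P10 control. Of 15 genes of smooth muscle and pericytes 14 were lower than in P10 control (median -1.57), with *Abcc9* at -2.37 and *Acta2* at -1.57. Of 28 skeletal muscle genes 23 were lower than in P10 control (median -2.23) and 1 was lower than in adult control, and without P10 control replicate 4, the array with most muscle RNA, 16 were lower than in P10 control. With replicate 2 as the only P10 control array, 1 of the 28 skeletal muscle genes, 3 of the 16 adipocyte genes and 12 of the 15 smooth muscle genes were lower. *Mylpf*, a myosin light chain, had 4.41, 6.62, 3.34 and 4.46 in adult cKO nerves, 4.10, 6.37, 5.26 and 3.90 in adult control nerves and 9.94, 6.82, 9.36 and 11.92 in P10 control nerves, so P10 control replicate 2 lay near the highest mutant array and replicate 4 far above it. Of 16 adipocyte genes 9 were lower and 1 higher than in P10 control (median -0.87), led by *Gpd1* (-1.99) and *Fabp4* (-1.77), and the higher one, lost without adult cKO replicate 4 (adjusted p = 0.056), was *Retn* (0.97). *Ucp1*, the heat-producing protein of brown fat, had 3.72, 4.34, 4.10 and 3.89 in adult cKO nerves, 4.55, 3.91, 4.46 and 4.02 in adult control nerves and 8.004, 5.82, 4.73 and 8.50 in P10 control nerves, where it varied most. The means of the adipocyte list were 6.81 to 7.59 in adult cKO, 7.27 to 8.99 in adult control and 7.73 to 8.63 in P10 control arrays, and how much tissue beside the nerve was taken along was not measured.

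Perineurial genes were lower than in adult control nerves, and genes of mitochondria higher. Of 15 perineurial and barrier genes 6 were higher and 1 lower than in P10 control (median 0.28), whereas none was higher and 8 were lower than in adult control (median -0.47), with the tight junction gene *Cldn1* at 0.73 and -0.29. Of 27 genes of the mitochondrial respiratory chain 4 were higher, 4 lower and 19 not called against P10 control (median 0.12), and 20 were higher and none lower than in adult control (median 0.52). The mean of that list was 8.84, 8.75, 8.73 and 8.77 in adult cKO, 8.26, 8.29, 8.04 and 8.38 in adult control and 8.88, 8.43, 8.41 and 9.12 in P10 control arrays, highest in P10 control replicate 4, the array with most muscle RNA, without which 10 were higher and 2 lower than in P10 control, and 2 were lower without adult cKO replicate 3. With all arrays, 7 were higher after centring each array on its median and 10 with array weights. Of 16 clock genes 5 were higher and 6 lower than in P10 control (3 higher without any one of adult cKO replicates 2 to 4 or P10 control replicates 1 to 3), with *Bhlhe41* at 1.55 and *Hlf* at -1.22. Of 10 red blood cell genes 2 were higher and 1 was lower (2 without P10 control replicate 3). Beside these counts against P10 control, the shares over all genes were 18.3% higher and 17.4% lower. In the model used throughout, the mitochondrial and red blood cell counts against P10 control thus did not stand out. This does not hold for the higher mitochondrial genes without P10 control replicate 4 or with array weights, at 10 of 27 each. Over all genes, 3268 and 3836 were then higher, beside 3572 in the model used throughout.

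Single genes were found at each level. Held at the P10 level and above adult control, with a 95% interval of the difference from P10 control within ±0.5, were *Neil3*, *Olfml2a*, *Kif2c*, *Kif11* and *Tpx2*. *Olfml2a*, an olfactomedin-like matrix protein and the one outside the cell cycle, had 9.03, 9.82, 9.47 and 9.70 in adult cKO nerves, 7.65, 7.72, 7.35 and 7.60 in adult control nerves and 9.42, 9.69, 9.47 and 9.34 in P10 control nerves. Held at the P10 level and below adult control were *Mgl2*, *Crispld2*, *Col4a3*, *Cav2* and *Gm906*. *Mgl2*, a lectin of resident macrophages and dendritic cells, had 6.19, 6.40, 6.06 and 6.47 in adult cKO nerves, 8.32, 8.29, 8.87 and 8.56 in adult control nerves and 5.96, 6.43, 6.35 and 6.33 in P10 control nerves, and *Col4a3*, a chain of type IV collagen, 5.70, 5.74, 6.17 and 5.79 in adult cKO nerves, 8.07, 8.04, 7.76 and 7.19 in adult control nerves and 5.83, 6.25, 5.92 and 5.63 in P10 control nerves. The adult control level was held above P10 control, with a 95% interval of the difference from adult control within ±0.5, by *Xdh*, *Apod*, *Vwa5a*, *Pir* and *Lepr*, and below P10 control by *Plagl1*, *Aplnr*, *Emid1*, *Dab1* and *Adamts17*. *Apod*, a lipid carrier of SCs and endoneurial cells, had 13.34, 13.24, 13.25 and 13.27 in adult cKO nerves, 13.21, 13.12, 13.01 and 12.84 in adult control nerves and 11.67, 11.71, 11.82 and 11.50 in P10 control nerves, a difference of 1.60 (standard error 0.10, adjusted p = 5.17e-11) from P10 control. *Aplnr*, the apelin receptor of growing vessels, had 6.63, 6.74, 6.17 and 6.28 in adult cKO nerves, 6.67, 6.33, 6.33 and 6.38 in adult control nerves and 8.40, 8.65, 8.33 and 8.61 in P10 control nerves, a difference of -2.04 (standard error 0.13, adjusted p = 9.91e-11). Over all genes the interval of the difference lay within ±0.5 for 46.3% against P10 control and for 48.2% against adult control. *Serpina3n*, an acute-phase protease inhibitor, had 10.98, 10.14, 10.02 and 10.02 in adult cKO nerves, 9.36, 9.37, 8.96 and 8.60 in adult control nerves and 4.91, 5.18, 5.12 and 4.77 in P10 control nerves, and was above P10 control (5.30) and nearer to adult control (1.22). *Mup19* and *Mup9*, major urinary protein genes of a family with near-identical copies, were 4.84 and 4.18 above P10 control and -1.18 and -1.20 from adult control, and their values cannot be assigned to single copies.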

How the data were processed

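RNA of sciatic nerve was measured on 16 Clariom S mouse arrays, 4 for each of 4 groups. The deposited log2 values were made by the authors from the scans with RMA (background correction, quantile normalization and summary per transcript cluster) in Transcriptome Analysis Console, so arrays share one distribution, small differences of low genes are compressed, and a level above background could not be told from these values. Of 22206 transcript clusters, 19572 carried a symbol in the array annotation used here, which gave 19505 genes (55 lay on several clusters, and the one with the highest mean over 16 arrays was kept). No value was dropped or imputed. A linear model of 4 group means over 16 arrays was fitted with limma 3.58.1 in R 4.3.3 (empirical Bayes with an intensity trend), and p-values were adjusted by Benjamini-Hochberg over all genes of a comparison, with 0.05 as the threshold. The fit was tested on simulated data. Array number limits the precision.

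The members, the 38 gene lists (747 of 826 listed symbols matched) and the rules were chosen with earlier results of these data known. Genes named were the 10 largest differences per direction without overlap, up to 6 per direction outside all control arrays, up to 5 per direction held at either control level, up to 6 per list with the smallest p, factors and myelin genes that the study discusses, *Becn1* and *Sqstm1*. Cell type markers, *Cdk1*, *Ccnb2*, *Isg15*, *Me1*, *Mitf*, *Cd79a*, *Ms4a1*, *Cd163*, *Folr2*, *Rsad2*, *Dct* and *Rab38*, and genes that make up a count of 5 or fewer (such as *Ptn*, *Lyve1* and *Tyr*) were named after their values were seen. Promoters and microRNAs came from RefSeq tables (GRCm38.p6), matched by symbol.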

Additional observations from a re-analysis of the deposited data

Results flagged for a closer look

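For 203 named genes, the 3 groups of 4 arrays used here were searched for an array whose gap to its nearest neighbour exceeded the 95% critical value of Dixon's test, as a share of the group's range. Of 609 groups, 29 held such an array, and chance alone gives about 1 in 20. All values are log2, with the range of the other 3 arrays in brackets. In adult cKO replicate 1, *Dct* had 6.405 (others 7.314 to 7.408), *Kit* had 7.807 (others 8.223 to 8.284), *Ncmap* had 7.722 (others 7.26 to 7.312), *Pmel* had 10.23 (others 10.93 to 11.04), *Serpina3n* had 10.98 (others 10.02 to 10.14) and *Sncg* had 8.296 (others 7.861 to 7.933). In adult cKO replicate 2, *Col5a1* had 7.192 (others 6.708 to 6.767), *Egr2* had 8.599 (others 7.812 to 7.946), *Myoz2* had 4.306 (others 3.297 to 3.428) and *Sptb* had 5.701 (others 5.001 to 5.111). In adult cKO replicate 3, *Csf3r* had 8.055 (others 8.446 to 8.484). In adult cKO replicate 4, *Me1* had 9.618 (others 8.554 to 8.72). In adult control replicate 1, *Aplnr* had 6.667 (others 6.325 to 6.381), *Dab1* had 6.01 (others 5.241 to 5.318) and *H2-K1* had 9.603 (others 10.14 to 10.25). In adult control replicate 3, *Hey2* had 6.198 (others 6.535 to 6.592). In adult control replicate 4, *Me1* had 10.5 (others 9.754 to 9.802). In P10 control replicate 1, *Egr2* had 10.7 (others 11.06 to 11.13), *H2-Aa* had 6.808 (others 7.05 to 7.068) and *S100a9* had 5.031 (others 5.56 to 5.668). In P10 control replicate 2, *Crispld2* had 7.88 (others 7.268 to 7.286). In P10 control replicate 3, *Cxcl12* had 9.196 (others 9.353 to 9.37) and *Mpeg1* had 5.681 (others 6.047 to 6.065). In P10 control replicate 4, *Cnp* had 11.51 (others 12 to 12.02), *Hexa* had 8.258 (others 8.686 to 8.761), *Lyz2* had 7.727 (others 8.266 to 8.321), *Mir675* had 12.57 (others 11.97 to 12.06), *Nefh* had 7.078 (others 7.495 to 7.539) and *Srebf2* had 11.37 (others 10.97 to 11.03). Adult cKO replicate 1 was thus the lowest of its group for the pigment genes *Dct*, *Kit* and *Pmel*. It was not the lowest for the pigment genes *Tyrp1*, *Trpm1* and *Gpnmb*, and *Kit* is also in the mast cell list.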

How the results depend on the processing

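No named gene changed sign while called under any alternative, and every count of genes over the whole array kept within 1.5 times its value under other scalings, a filter on dim genes, every transcript cluster, no intensity trend, array weights, the 8 arrays alone, SAM with 70 splits and leaving out single arrays. For adult cKO against P10 control, leaving out single arrays gave 3160 to 3569 higher and 2860 to 3357 lower genes, and SAM gave 3822 and 3773. Counts fell by construction among the 5000 most variable genes (1941 higher and 1837 lower for adult cKO against P10 control, 1873 and 1723 for adult cKO against adult control, 1640 and 1670 for adult control against P10 control) and with a log2 difference of at least 1 (784 and 816, 718 and 642, and 449 and 469 in the same order). Among brighter genes only, the adult cKO arrays lay at 0.791 from P10 control, 0.693 from adult control and 0.627 from P10 cKO. The dim-gene filter removed most T cell, B cell and neutrophil genes (1, 0 and 1 then called higher) and left 14 interferon and 9 chemokine genes higher, since fewer were tested. Centring each array on its median put 56.2% of the called genes on the higher side, against 51.9% after a further quantile normalization. The samples were not treated as paired by replicate number. Deviations of same-numbered arrays from their group means correlated at -0.13 to 0.1 for adult cKO and P10 control. For adult cKO and adult control it was 0.035 to 0.1, with the own number highest in 3 of 4 arrays, and for the 2 control groups -0.11 to 0.15, with 2 of 4. With the replicate block 3504 genes were higher and 3355 lower (3393 and 2819 against adult control, 2675 and 2923 for adult control against P10 control). An alternative chosen after the data were seen took P10 control replicate 2 as the only P10 control array. The difference was then -0.38 for *Becn1*, which missed the threshold. So did other genes, among them *Pax3* (0.10), *Tfap2a* (0.35), *Mpzl2* (0.60), *Lyve1* (-0.84), *Plk1* (-0.47) and *Nuf2* (0.58). The same held for *S100a9* (0.79), *Fbln1* (0.27), *Elovl5* (0.41), *Fabp4* (-1.53), *Nefh* (-0.57), *Jun* (-0.51) and *Anln* (0.57). Lists of cholesterol synthesis, complement, neutrophils, mast cells and perineurial genes also lost calls. Other choices also moved calls near the threshold. *Sptlc1* lost its call under the replicate block (adjusted p = 0.0566), with no intensity trend (0.0514) and after a further quantile normalization (0.0616), *Bbc3* in the 8 arrays alone (0.0671), after centring (0.058) and after quantile normalization (0.0539), and *Me1* after quantile normalization (0.0609). *Cdk1* passed as higher in the 8 arrays alone (0.0469), after centring (0.0381), after quantile normalization (0.0358) and with no intensity trend (0.0465), *Mki67* as lower in the 8 arrays alone (0.0253), after quantile normalization (0.0421) and with array weights (0.0356), *Cd79a* as higher after both scalings, with no intensity trend and with array weights (0.0356 to 0.0482), and *Rsad2* with array weights (0.0428). The 5 higher clock genes became 3 after quantile normalization, with no intensity trend and under the replicate block, and the genes of DNA replication and mitochondria that moved with centring or array weights are given with their lists.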
